A study of Drosophila melanogaster with 2 samples.

Results

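The 8 Hox genes of Drosophila melanogaster were examined for sites occupied by Bab2 (bric-à-brac 2), a BTB-domain transcription factor, in ChIP-seq peak lists from whole embryos. The genes were lab, pb, Dfd, Scr and Antp of the Antennapedia complex and Ubx, abd-A and Abd-B of the bithorax complex, 8 of 13945 protein-coding genes on the chromosome arms. A peak was assigned to a gene when its summit, the base of highest enrichment, lay in the annotated span of the gene or within 20 kb of it. By this rule the 8 genes had 23 of the 4720 peaks in the optimal list, the list kept by the authors' reproducibility procedure. The rule for members names genes and uses no measured value, though it was written with earlier results of these data known.

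The libraries formed 1 group of 2 biological replicates, called replicate 2 and replicate 3, from separate biosamples. The embryos were of mixed sex, aged 0 to 24 h, and carried a transgene that encodes Bab2 with GFP at its C-terminus, which was precipitated with an anti-GFP antibody. All stages and tissues of the embryo were pooled, so a peak could not be assigned to a segment or cell type, and the sequences that drive the transgene were not stated in the labels. Sonication gave fragments of 200 to 800 bp. The control that the labels name was not analysed here. The relaxed lists, which hold background as well as peaks, had 27372 peaks in replicate 2, 25804 in replicate 3 and 24109 for pooled reads. Read depth was not stated in the labels or README text. Each peak has 1 signal, the authors' enrichment value, which carries no standard deviation and is comparable only within a list. With 1 group, no comparison between conditions was possible.

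Hox genes encode homeodomain transcription factors that give the segments of the body axis their identity, and their order along the chromosome matches the order of the segments in which they act. They are controlled by large arrays of enhancers, Polycomb response elements and insulators spread through introns and intergenic DNA. The bab genes are known as targets of this system: in the developing abdomen their expression is set in part by Abd-B. Whether Bab2 occupies the Hox complexes in turn is the question these lists can address.

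All 8 Hox genes had an optimal summit within 20 kb, but so did most genes: the same held for 78.3% of all protein-coding genes and for 82.9% of the 1865 genes at least as long as Dfd, the shortest Hox gene (10.6 kb). The density of summits in the windows was also near the average of the genome. The windows, which cover 0.627 Mb after merging, held 36.7 optimal summits per Mb (exact Poisson 95% interval 23.2 to 55, counting error only), against 35.3 per Mb over the arms. In the relaxed lists the windows held 214 summits per Mb against 205 in replicate 2, 212 against 193 in replicate 3 and 202 against 180 in pooled reads. The Hox gene spans alone held 26.7 optimal summits per Mb, fewer than the windows. Per 100 kb this was 2.67, against 2.93 in the spans of other genes at least as long as Dfd. The pooled relaxed list went the other way, with 21.0 per 100 kb against 17.2. These differences were not tested. Of the 127 pooled summits in the windows, 23 (18.1%) were in the optimal list, against 19.6% of all pooled summits.

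**Figure D1:**
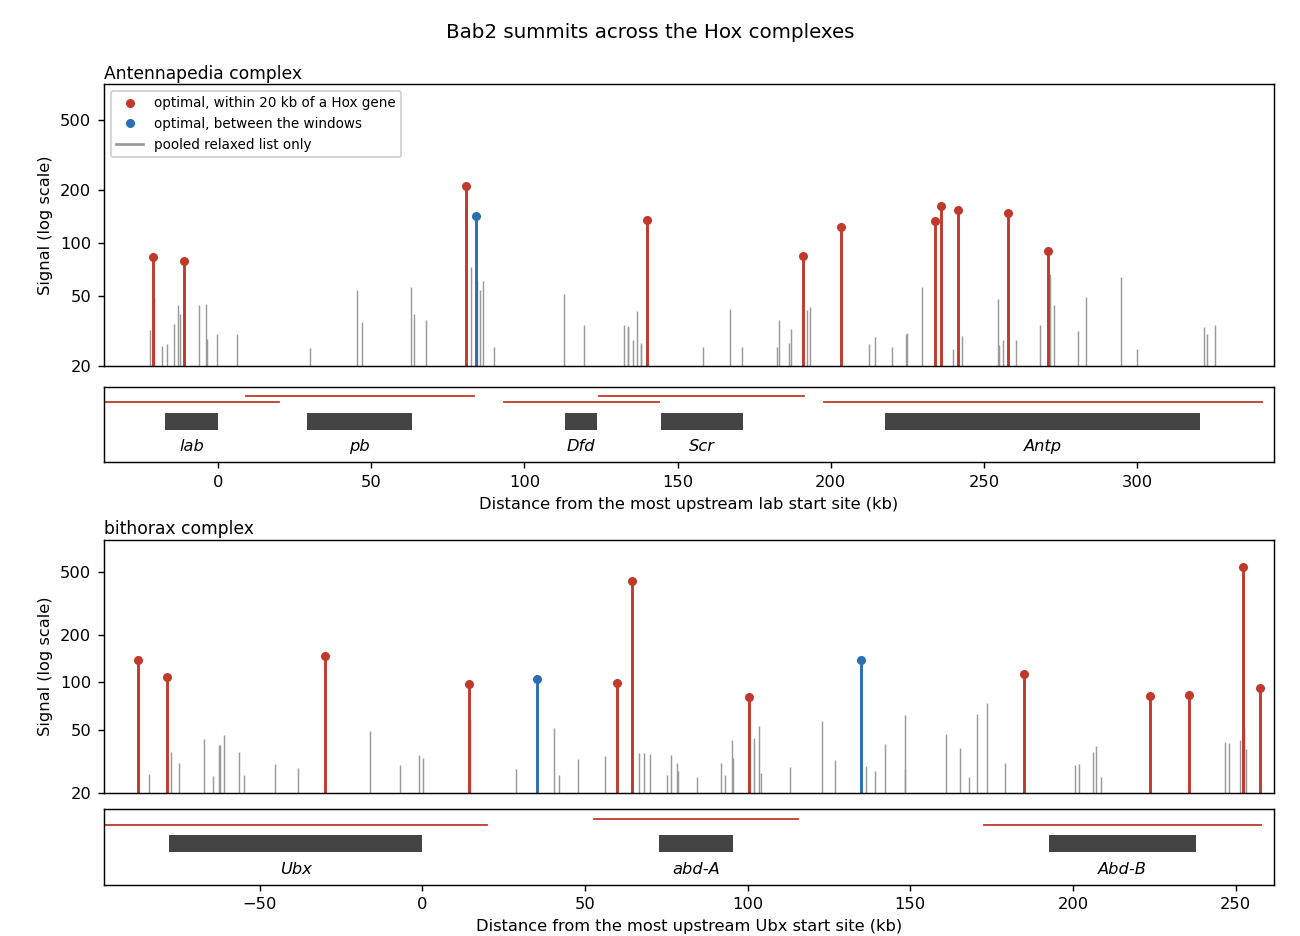
Signal of Bab2 summits (log scale) along the Antennapedia and bithorax complexes, plotted by distance in kb from the most upstream lab and Ubx start sites. Red points are optimal summits within 20 kb of a Hox gene, blue points are optimal summits between those windows, and grey lines are summits of the pooled relaxed list that did not reach the optimal list. Dark bars are gene spans and red lines their windows. The highest summits, at 434 and 534, lie outside the Hox gene spans, in the windows of abd-A and Abd-B.

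The 23 peaks fell into 3 classes by position. In introns of Hox genes lay 9, near start sites of other genes lay 6 (within 500 bp), and 8 lay elsewhere between genes or in long noncoding RNA genes. No summit lay in a Hox exon. Signals were 78.3 to 162 for the intronic summits, 83.3 to 534 for those at other genes' start sites and 80.2 to 434 for the remainder. The 3 ranges overlapped, and the 2 highest values were both outside Hox gene spans. Ranks in the optimal list ran from 138 to 4543 of 4720, with a median of 2815, and 10 of the 23 were in the upper 2360. The median signal was 112, against 128 over the whole optimal list. The sequences around 6 of these summits are given here, since they cover the strongest intergenic peak, the strongest peak in each Hox gene that has an intronic summit, and the bcd start site. Each is 201 bases of the RefSeq release 6 genome (dm6), plus strand, centred on the summit. Capitals mark matches, on either strand, to 9 short motifs named with the motif counts.
Downstream of abd-A, chr3R:16798781-16798981: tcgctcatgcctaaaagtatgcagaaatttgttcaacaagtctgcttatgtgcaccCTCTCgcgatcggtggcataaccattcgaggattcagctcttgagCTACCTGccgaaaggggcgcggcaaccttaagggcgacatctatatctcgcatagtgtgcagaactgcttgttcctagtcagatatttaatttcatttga
Upstream of bcd, chr3R:6759601-6759801: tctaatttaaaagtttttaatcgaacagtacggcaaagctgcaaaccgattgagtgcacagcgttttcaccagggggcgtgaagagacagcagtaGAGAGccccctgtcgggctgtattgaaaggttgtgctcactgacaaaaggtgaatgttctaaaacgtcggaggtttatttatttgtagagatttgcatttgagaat
Antp intron, chr3R:6914485-6914685: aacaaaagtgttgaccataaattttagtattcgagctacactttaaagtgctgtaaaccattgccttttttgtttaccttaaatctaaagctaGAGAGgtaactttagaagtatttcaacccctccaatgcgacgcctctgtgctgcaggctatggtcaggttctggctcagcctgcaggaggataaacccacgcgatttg
Ubx intron, chr3R:16704361-16704561: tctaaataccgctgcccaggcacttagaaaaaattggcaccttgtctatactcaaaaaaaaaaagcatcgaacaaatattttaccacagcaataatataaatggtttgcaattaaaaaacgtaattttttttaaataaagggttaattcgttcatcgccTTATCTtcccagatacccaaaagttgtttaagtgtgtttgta
Abd-B intron, chr3R:16969986-16970186: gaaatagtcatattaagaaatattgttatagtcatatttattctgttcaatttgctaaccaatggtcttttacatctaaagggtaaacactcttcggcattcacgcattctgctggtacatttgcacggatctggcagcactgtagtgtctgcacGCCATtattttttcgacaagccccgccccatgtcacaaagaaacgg
lab intron, chr3R:6667387-6667587: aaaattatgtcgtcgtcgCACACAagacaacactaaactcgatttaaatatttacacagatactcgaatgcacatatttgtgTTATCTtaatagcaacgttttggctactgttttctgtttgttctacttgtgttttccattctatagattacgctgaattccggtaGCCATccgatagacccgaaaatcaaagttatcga

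Of the genes of the head and first thoracic segments, lab alone had an optimal summit in its span. Among genes of 0.5 to 2 times their length, 38.8% had one for lab, 47.7% for pb, 28.7% for Dfd and 44.7% for Scr, a comparison added after the counts had been seen. lab (FBgn0002522; 3R, 6661427 to 6678590, minus strand), which acts in the intercalary segment of the head, had 2. One lay in a lab intron (6667275 to 6667698, signal 78.3, rank 4543), 4033 bp upstream of the nearer of the 2 lab start sites. The other (6657293 to 6657716, signal 83.3) lay 63 bp upstream of the start of CG1307, a neighbouring gene outside the complex. The intronic peak was near the lower limit of the optimal list, which was 76.1, and its rank was 2622 in replicate 2 and 8469 in replicate 3.

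pb (FBgn0051481; 3R, 6707800 to 6742063, minus strand), which patterns the mouthparts, had no optimal summit in its span. Its only one in the window (6759489 to 6759912, signal 210, rank 1056) lay 235 bp upstream of bcd, the gene of the anterior morphogen Bicoid, and 17638 bp upstream of the pb start. This bcd peak was alike in both libraries, at rank 1002 in replicate 2 and 1022 in replicate 3. In the pooled relaxed list the pb span held 4 summits, with a highest signal of 55.9.

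Dfd (FBgn0000439; 3R, 6791836 to 6802428, plus strand), a gene of the maxillary and mandibular segments, and Scr (FBgn0003339; 3R, 6823120 to 6849981, minus strand), of the labial and first thoracic segments, had no optimal summit in their spans either. They shared 1 peak between them (6818545 to 6818968, signal 135, rank 2160). It lay 26921 bp downstream of the Dfd start, 4363 bp from the 3' end of Scr, and 1137 bp from the nearest start site of any kind, that of a lysine tRNA gene. Its rank was 1719 in replicate 2 and 3159 in replicate 3. Scr had a further summit (6869295 to 6869718, signal 83.8, rank 4156) 19526 bp upstream of its start, on the far side of the pair-rule gene ftz and 5183 bp from its start. The strongest pooled summits inside the spans, neither of them optimal, had signals of 33.9 for Dfd and 41.7 for Scr.

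Antp was the Hox gene with the most optimal summits inside its span. Antp (FBgn0260642; 3R, 6896253 to 6999228, minus strand), which gives the second thoracic segment its identity, had 5, all in introns of Antp and of CG46458, a gene annotated within the same stretch. Their signals were 133 (6912271 to 6912694), 162 (6914373 to 6914796), 153 (6920008 to 6920431), 148 (6936110 to 6936533) and 90.4 (6949306 to 6949729). Of these, 4 lay within a stretch of 23.8 kb. Distances to the nearest of the 3 Antp start sites were 20357, 18255, 12620, 3482 and 8852 bp in the same order, so none was at a start site. Antp is long (103.0 kb), so its count was set beside genes of similar length in the same way. Of 287 genes of 0.5 to 2 times its length, 40 (13.9%) had at least 5 optimal summits in the span, and the median was 1. A sixth summit of the window (6881625 to 6882048, signal 123) lay in an intron of the long noncoding RNA gene CR44931, outside Antp.

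The 5 Antp peaks differed in how alike they were in the replicates. The strongest was at rank 1613 in replicate 2 and 1666 in replicate 3, and the peak of signal 153 at 1753 and 2035. The peak of signal 133 was at rank 5709 in replicate 2 (signal 32.1) and 1418 in replicate 3 (signal 99.55), the largest ratio of ranks among the 23. The other two were at ranks 2596 and 4639 in replicate 2, and 1660 and 3378 in replicate 3. Of the 5, the strongest 2 had the closest ranks in the libraries.

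In the bithorax complex, Ubx (FBgn0003944; 3R, 16656623 to 16734426, minus strand), the gene of the third thoracic and first abdominal segments, had 4 optimal summits in its window and 1 in its span. That one lay in an intron (16704249 to 16704672, signal 146, rank 1914), 29965 bp downstream of the single annotated Ubx start. It ranked 1574 in replicate 2 and 2454 in replicate 3. Of 450 genes of 0.5 to 2 times the Ubx length, 54.4% had at least 1 optimal summit in the span. A further peak (16748558 to 16748981, signal 98.1) lay 14344 bp upstream of Ubx in an intron of bxd, a long noncoding RNA gene in the upstream regulatory region of Ubx. The remaining ones lay beyond the 3' end of Ubx at other genes' starts: 180 bp upstream of CG10324 (16646972 to 16647395, signal 138) and 216 bp upstream of modSP, which encodes a serine protease of the Toll pathway (16655666 to 16656089, signal 109).

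abd-A (FBgn0000014; 3R, 16807214 to 16830049, minus strand), which acts in the middle abdominal segments, had no summit in its span but had the second strongest of the 23 nearby. Of genes of 0.5 to 2 times its length, 42.6% had an optimal summit in the span. This peak (16798785 to 16799021, signal 434, rank 228) lay in intergenic DNA 8333 bp beyond the 3' end of abd-A, 10570 bp downstream of the Glut3 start and 1719 bp upstream of the noncoding RNA gene CR45750. It was at rank 225 in replicate 2 and 253 in replicate 3. It was narrower than most (237 bp), whereas 21 of the 23 had the standard width of 424 bp, as did 83.2% of optimal peaks elsewhere. A weaker neighbour (16794181 to 16794604, signal 99.6) lay on the Glut3 side, and another (16834666 to 16835089, signal 80.2) lay 4829 bp upstream of abd-A, in introns of the iab8 noncoding RNA gene and of MSAmiP.

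Abd-B (FBgn0000015; 3R, 16927212 to 16972236, minus strand), the gene of the posterior abdomen, had 5 optimal summits in its window. Of 790 genes of 0.5 to 2 times its length, 30.3% had at least 2 in the span, the Abd-B count. The 2 in its introns were weak, with signals of 81.6 (16958042 to 16958465) and 82.75 (16969874 to 16970297). They lay 2027 bp downstream and 1512 bp upstream of Abd-B start sites, and the second was the optimal summit nearest to any Hox start site. Without replicate 3 neither was retained, and the summit nearest to an Abd-B start was then at 14429 bp. Ranks were 5673 and 5148 in replicate 2, and 4049 and 4328 in replicate 3. Another (16919042 to 16919465, signal 112) lay 7958 bp beyond the 3' end of Abd-B, in an intron of iab8. The strongest of all 23 (16986514 to 16986793, signal 534, rank 138) lay outside the complex, in the 5' UTR of CG18622 and 14429 bp upstream of the most upstream Abd-B start, and the last (16991741 to 16992164, signal 91.5) lay 75 bp upstream of EMC2B, which encodes a subunit of the ER membrane complex. The highest signal in the Abd-B window was thus at the start of a neighbouring gene.

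**Figure D2:**
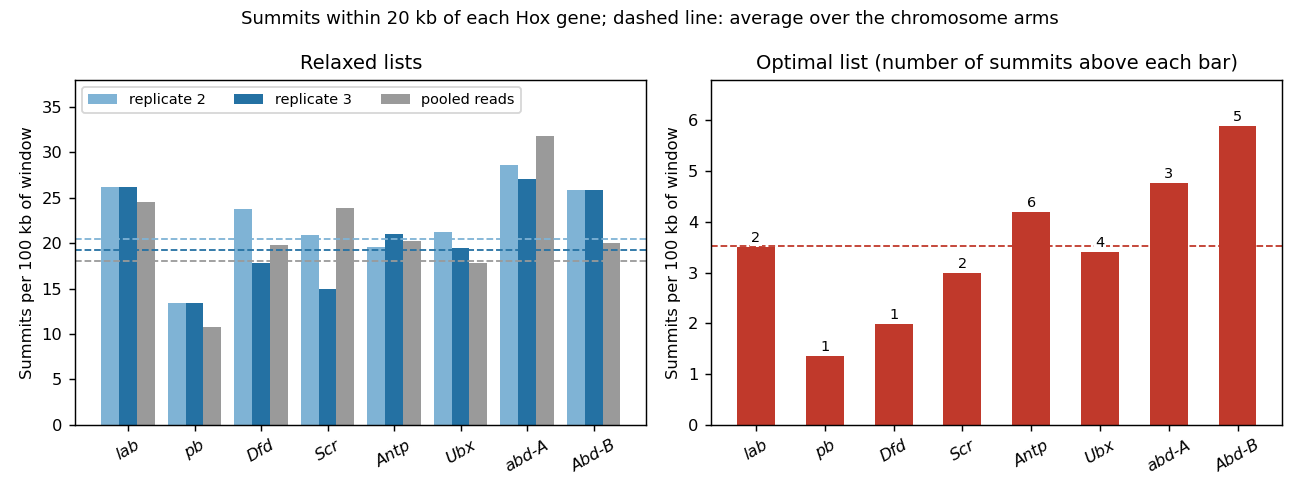
Bab2 summits per 100 kb of window for each Hox gene, in the relaxed lists of replicate 2, replicate 3 and pooled reads (left) and in the optimal list (right, with the number of summits above each bar). Dashed lines are the averages over the chromosome arms, which are 20.4 for replicate 2, 19.3 for replicate 3, 18.01 for pooled reads and 3.53 for the optimal list. pb was lowest in every list, at 1.35 optimal summits per 100 kb, and Abd-B was highest in the optimal list, at 5.88. Without replicate 3 Abd-B had 3 summits in 85.0 kb and abd-A had 3 in 62.8 kb, so Abd-B was then not the highest.

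In the relaxed lists pb had the lowest density in all 3 relaxed lists (13.5 per 100 kb in each replicate and 10.8 in pooled reads) and abd-A the highest (28.65 in replicate 2, 27.05 in replicate 3 and 31.8 in pooled reads). For Abd-B the relaxed density was 25.9 in each replicate and 19.99 in pooled reads. These counts are of single windows in 2 libraries, and differences between genes were not tested. The windows of lab and pb overlap, as do those of Dfd and Scr.

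None of the 8 Hox start regions held an optimal summit. The count of genes with one within 500 bp was 0 of 8, against 20.1% of all protein-coding genes and 26.2% of those at least as long as Dfd. The approximate upper limit for 0 of 8, 3 divided by the number of genes, is 37.5%, a rough value for so few genes. The nearest optimal summit to a start site was at 1512 bp for Abd-B, 3482 bp for Antp, 4033 bp for lab, 4829 bp for abd-A, 14344 bp for Ubx, 17638 bp for pb, 19526 bp for Scr and 26921 bp for Dfd. A single library decided some of these. The distance was 14429 bp for Abd-B without replicate 3. Without replicate 2 it was 29224 bp for abd-A and 6013 bp for lab, whose intron peak was then not retained. Inside the gene span, 4 of 8 had an optimal summit, against 12.2% of all protein-coding genes and 44.5% of those at least as long as Dfd. All 4 had it away from their starts, which follows from the 0 of 8 above and is not a separate result. That pattern was seen in 24.3% of genes at least as long as Dfd. The span share of the Hox genes, 4 of 8 against 44.5%, was near that of other long genes.

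Weak summits did lie at Hox start sites in the relaxed lists. In pooled reads 6 of 8 Hox genes had one within 500 bp of a start, against 47.0% of all protein-coding genes. That share was not matched for gene length or number of starts, and 7 of the 19 annotated Hox starts had one. Signals of the strongest at each gene were 50.9 for Dfd, 47.9 for Antp, 43.1 for abd-A, 33.3 for Ubx, 30.4 for lab and 25.6 for Scr. The nearest for pb (signal 55.9) and Abd-B (30.03) were at 596 and 860 bp. All were under 76.1, the lowest signal in the optimal list. This restates that none was optimal, since optimal peaks in the complexes had the same signal and rank in the pooled list. Among 6546 other genes with such a pooled summit, the median of the strongest was 63.7 (quartiles 38.02 and 128). Replicate 2 had a summit within 500 bp of a start at 6 Hox genes and replicate 3 at 5. The relaxed lists hold background by design.

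**Figure D3:**
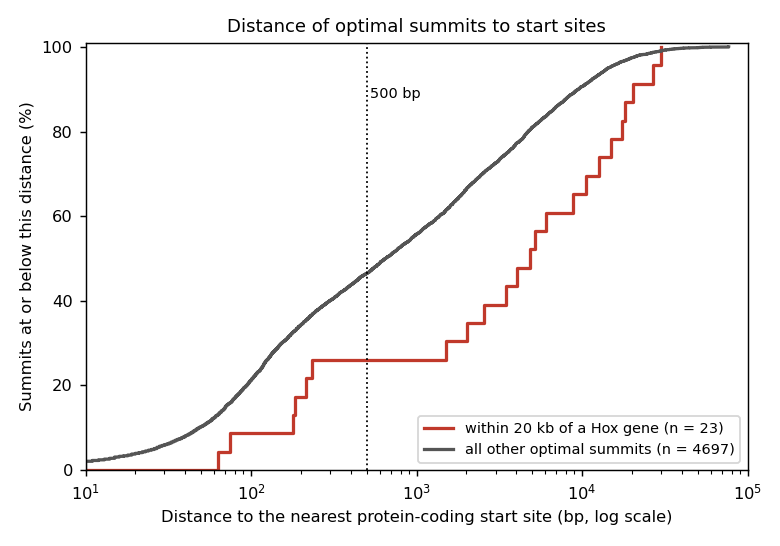
Cumulative share of optimal summits by distance to the nearest protein-coding start site (log scale; distances under 10 bp are drawn at 10). The red line is the 23 summits within 20 kb of a Hox gene and the dark line the 4697 other optimal summits. At 500 bp the red line stands at 26.1% and the dark line at 46.5%.

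Seen from the peaks, many summits in the Hox windows were far from start sites. The median distance to the nearest protein-coding start was 4829 bp for the 23 and 649 bp for the other 4697. Beyond 5000 bp lay 11 of 23 (47.8%), against 19.0% of the others. Of those within 500 bp, 6 in number, none was at a Hox start: they were at CG1307, bcd, CG10324, modSP, CG18622 and EMC2B. The difference was not tested, and the other peaks were not matched for the spacing of start sites around them. Starts of noncoding genes were not counted, and some of the 23 lay nearer to one of those.

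All 23 peaks had a summit within 200 bp in both replicate lists, as 99.6% of all optimal peaks did. The optimal list came from a reproducibility procedure on these libraries, so this was not an independent result. Optimal peaks in the complexes had the same signal and rank in the pooled list. A place in the optimal list thus did not show that a given peak was alike in both replicates. Among the 4720 strongest peaks of each replicate, 17 of 23 (73.9%) were found in both, against 79.1% of all optimal peaks. Of all optimal peaks, 40 were among the strongest of neither replicate. Ranks in the 2 replicates differed by more than 2 times for 3 peaks: the lab intron peak, the Antp intron peak of signal 133 and the modSP peak (4800 in replicate 2 and 2382 in replicate 3). Replicate 2 gave the better rank to 12 of the 23 and replicate 3 to 11.

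**Figure D4:**
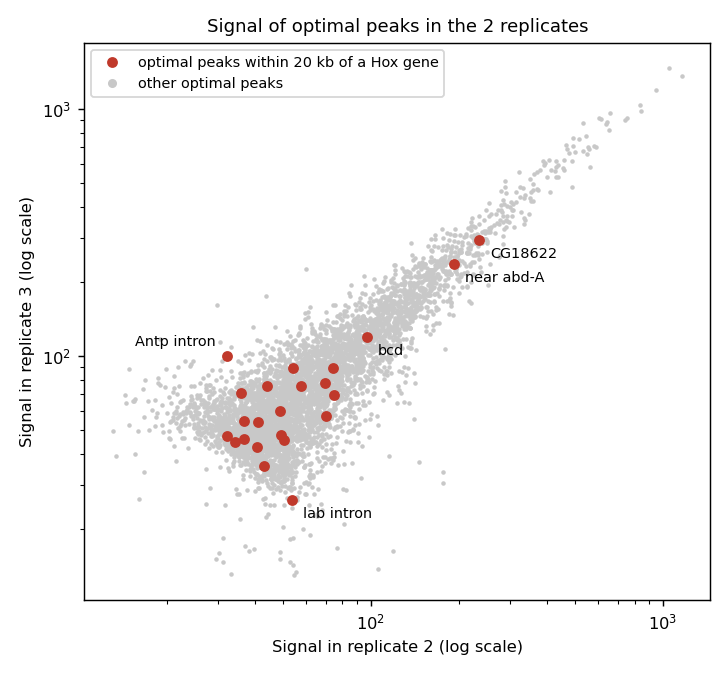
Signal of optimal peaks in replicate 2 and replicate 3 (both log scales, 1 point per peak). Red points are the 23 peaks within 20 kb of a Hox gene and grey points the other optimal peaks found in both lists. The CG18622 peak (235 in replicate 2 and 295 in replicate 3), the peak near abd-A (193 and 235) and the bcd peak (97.0 and 120) are highest among the Hox windows.

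Between the windows but inside the complexes lay 3 further optimal peaks, which the 20 kb rule leaves out. The nearest (6762702 to 6763125, signal 142) lay 20851 bp from pb in the 5' UTR of Ama, which encodes an adhesion protein of the immunoglobulin family. The others lay in an intron of bxd (16769403 to 16769826, signal 105, 35189 bp from Ubx) and in introns of iab8 and MSAmiP (16869189 to 16869612, signal 139, 39352 bp from abd-A). Just inside the 20 kb limit were the EMC2B peak at 19717 bp (signal 91.5) and the peak upstream of Scr at 19526 bp (signal 83.8). With the peaks between the windows counted, the noncoding RNA genes bxd and iab8 held 2 and 3 optimal summits in their spans. The spans are long (3R, 16742125 to 16773189 for bxd and 16831116 to 16923231 for iab8). The average over the arms was 3.53 optimal summits per 100 kb, and the counts were not set beside genes of like length.

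The sequences around the 23 summits were close to other optimal peaks in base composition, with a median GC content of 35.8% (27.4% to 46.3%) against 36.3%. The motif search covered both strands of the 201 bases centred on each summit, and matches of different motifs may share bases. The GAGA factor core GAGAG was in 9 of 23 windows (39.1%), against 22.4% of all optimal windows, and among those printed it is in the sequences downstream of abd-A, upstream of bcd and in Antp. The Pho core GCCAT was in 7 (30.4%, against 26.6%), as in the Abd-B and lab sequences. The GATA motif AGATAA was in 3 (13.0%, against 13.6%), as in the Ubx and lab sequences. The Zelda motif CAGGTAG was in 1 (4.35%, against 0.911%), the peak near abd-A.

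A homeodomain core, TAATTA, was in 0 of 23 windows, against 15.6% of all optimal windows. The approximate upper limit for 0 of 23, 3 divided by the number of windows, is 13.0%. It takes neighbouring peaks as independent and makes no allowance for the 9 motifs searched, so it is no test against 15.6%. TAATTA was in 2 of the 3 peaks between the windows (those of Ama and bxd), so its count depends on the 20 kb limit. The TA-rich run TAATAA was in 2 of 23 (8.7%, against 28.8%), the other run TATATA in 4 (17.4%, against 14.6%), the DRE motif TATCGATA in 1 (4.35%, against 4.17%) and the CA run CACACA in 1 (4.35%, against 16.3%). With 23 windows each count has a wide error, and no difference was tested. A match gives only the presence of these letters.

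A list of 11 other developmental transcription factor genes, Hox cofactors among them, was counted by the same rule: exd, hth, tsh, salm, disco, disco-r, unpg, cad, eve, eyg and Dll. An optimal summit lay within 20 kb of 8 of 11, and in the span of 3, against 78.3% and 12.2% of all protein-coding genes. The 3, hth, disco-r (30.9 kb) and cad (12.4 kb), were all longer than Dfd. Of genes at least as long as Dfd, 44.5% had a summit in the span. salm (11.3 kb) and Dll (20.8 kb) were also longer than Dfd and had none in the span. The highest count was in hth, a long gene (132.0 kb) that encodes the homeodomain cofactor carrying Exd into the nucleus. It had 7 summits in its span (highest signal 144.5), a count not set beside genes of like length. disco-r, a zinc finger gene that acts with Hox genes in the head, had 2 (84.9), and cad, the caudal gene of posterior identity, had 1 (146). The highest signals near listed genes, 1208 in the eve window and 584 in the unpg window, were outside the spans of these homeobox genes. None of the 11 had an optimal summit at a start site (500 bp), against 20.1% of all protein-coding genes, and exd, disco and Dll had none within 20 kb.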

How the data were processed

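ChIP-seq peak lists in narrowPeak format on the dm6 build were used. Per the deposited README text, these were a relaxed list per replicate and one for pooled reads, called against a control, and an optimal list after the irreproducible discovery rate procedure. The authors deposited a signal per peak, of unstated scaling, and a −log10 q-value, which was not used for ranking. Aligner, peak caller and versions were not stated. Lists on dm3 were not used here.

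Summits were computed as start plus offset and reported 1-based. Genes, start sites and sequences came from release 6 with the Ensembl 115 annotation, on 6 arms. The length of 3R in that assembly is 32079331 bp. Ranks are by signal within a list. Signals are printed without error because each list has 1 value per peak. Genes named are the 8 members, genes that hold or are nearest to an optimal summit in their windows, and a fixed list of neighbours and other developmental genes. Members, lists and motifs were chosen with earlier results of these data known. Code for window counts was checked on simulated data. Alternatives were other window and start-site distances, a stricter list, the pooled relaxed list and each replicate's strongest 4720 peaks alone. Software was matplotlib 3.10.9, scipy 1.17.1, pandas 2.3.3, numpy 2.4.6 and Python 3.11.15.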

Additional observations from a re-analysis of the deposited data

How the results depend on the processing

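The count of genes with a summit followed the window: with the gene span alone, 4 of 8 Hox genes and 9 summits remained, against 8 genes and 23 summits within 20 kb. A 10 kb window gave 6 genes and 16 summits, and a 50 kb window 8 genes and 27 summits. With the upper 2360 peaks of the optimal list alone, 10 summits were left (15.9 per Mb), fewer by construction, and lab had none in its window. The count of Hox genes with a summit at a start site was 0 at 250, 500 and 1000 bp and without either replicate. It was 1 (Abd-B) at 2000 bp and 6 in the whole pooled relaxed list, which holds background. The strongest 4720 peaks of 1 replicate gave 19 summits without replicate 3 and 25 without replicate 2. Abd-B then had 3 summits without replicate 3 and 8 without replicate 2, against 5 in the optimal list. The nearest summit to a start site moved to 14429 bp for Abd-B without replicate 3. It moved to 29224 bp for abd-A and to 6013 bp for lab without replicate 2. Without replicate 2, lab had 1, pb 2 and abd-A 2, against 2, 1 and 3 in the optimal list; the cause was not tested. Read depth is unknown, so what it limits could not be given. No paired analysis was possible because the 2 replicates form a single group.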

Other observations

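In the Antennapedia complex the longest stretch without an optimal summit ran for 92.2 kb, between the lab intron summit (6667487) and the bcd summit (6759701), and covers the Ccp84A cuticle genes and the whole of pb. It held 11 summits of the pooled relaxed list. Stretches at least this long made up 5.9% of all intervals between neighbouring optimal summits on the arms, where the median was 9.7 kb. The next were 55.8 kb, from the Ama summit to the one between Dfd and Scr, and 50.8 kb, from there to the summit beyond ftz. In the bithorax complex the longest was 49.9 kb, in the iab8 region between abd-A and Abd-B. The median interval was 24.8 kb, against 13.2 kb in the Antennapedia complex. The medians do not mean fewer summits. With flanks of 20 kb, the bithorax complex (315.6 kb without flanks) held 14 optimal summits, and the Antennapedia complex (337.8 kb) held 12. These stretches were picked out after their values were seen.

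None of the 7 Ccp84A genes, short genes that encode cuticle proteins, had an optimal summit in its span. Only 12.2% of all protein-coding genes had one, so having none was the common case. The nearest optimal summit to any Ccp84A start was at 19241 bp (Ccp84Ag). The homeobox genes zen and zen2 had none in their spans either, and their nearest optimal summit was the bcd peak. The microRNA gene mir-10, between Dfd and Scr, had its nearest optimal summit at 9175 bp, and mir-iab-4 and mir-iab-8 had theirs at 13126 and 13059 bp. The nearest pooled summit to those bithorax microRNAs was closer, at 964 and 897 bp, with a signal of 57.3.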
